A study of Rattus norvegicus with 17 samples.

Results

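The genes described here encode the proteasome of rat liver: 46 genes whose symbols begin with Psma, Psmb, Psmc, Psmd, Psme, Psmf or Psmg followed by a digit, of 14217 genes measured. They were chosen by symbol alone, and each was read from the brightest of its probe sets that carry a single symbol (60 such probe sets in all, with more than 1 for 9 of the genes). By role they were 7 subunits of the alpha ring and 6 constitutive subunits of the beta ring, 3 inducible catalytic subunits, 6 ATPases and 11 other subunits of the regulatory cap, 3 chaperones of cap assembly and 4 of core assembly. There were also 3 activators, 1 inhibitor and 2 genes that only share the letters, Psmc3ip, a meiotic recombination factor, and Psme3ip1, which encodes a partner of an activator protein. Psmb6 and Psme3 had only probe sets shared with other symbols and were not analysed here.

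The rats, 17 male Harlan Sprague-Dawley animals with 1 oligonucleotide array of liver RNA each, had received corn oil alone or with isopropylated phenol phosphate (IPP), an organophosphate that serves to make plastics pliable and slow to burn. The 5 vehicle rats and the 3 rats at each of 76.5, 153, 305.5 and 611 mg/kg body weight were dosed by oral gavage on 4 days in a row, and pieces of the left lobe were taken on the following day. Every group thus shared the corn oil and the gavage, and the age of the rats is not given in the sources used here. The question put to the data was whether the proteasome genes changed with the dose.

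As background, the proteasome is the barrel-shaped protease that degrades most ubiquitin-tagged proteins of a cell. Alpha rings gate the barrel, beta rings carry the cutting sites, and a cap of ATPases and other subunits binds ubiquitin chains, removes them, unfolds the substrate and feeds it in. Interferon replaces the constitutive cutting subunits by inducible ones that favour peptides for antigen presentation, and when proteasome activity falls short in mammalian cells, the transcription factor NRF1 (gene Nfe2l1) raises most subunit genes together.

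Values are log2 signal as deposited, and each difference is a dose group's mean log2 value less that of vehicle, with its SE (n = 3 per dose, n = 5 for vehicle), fitted with limma across the 17 arrays and 14217 genes together. A gene was called when its Benjamini-Hochberg adjusted p from limma was under 0.05. All 4 doses were compared with the same 5 vehicle rats, so their differences are not independent of each other. Array medians lay between 6.29 and 6.40, and the number of arrays limits the precision. The array of 611 mg/kg rat 2 stood apart, with a 3' minus 5' difference of the GAPDH control probe sets of 2.89 against 0.93 to 1.56 on the other arrays, and the lowest median correlation with the other arrays (0.984). Next lowest were 76.5 mg/kg rats 2 and 3 (0.987 and 0.986), against at least 0.991 for the rest. Calls at 611 mg/kg are therefore given with and without rat 2. The tissue carried its defining markers: the 9 measured hepatocyte genes, albumin (Alb) among them, averaged between 12.50 (Hnf4a) and 15.35 (Alb) and none was called at any dose.

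Proteasome genes were well expressed and steady from rat to rat. The dimmest gene was Psmc3ip, with a mean over all rats of 6.74. The 44 genes of the proteasome and its assembly had means from 8.74 (Psmg2, a core chaperone) to 12.25 (Psmb4, a beta subunit). These are levels of single probe sets, which bind unequally, so they give no order of abundance between genes. The median within-group SD of the 46 genes was 0.115, against 0.152 over all genes, and 32 of the 46 lay below the latter. The largest within-group SD was that of Psmb8, an inducible catalytic subunit, at 0.422. Averaged over the 46 genes, each rat's distance from the vehicle mean ran from -0.05 to 0.05 in vehicle, was 0.15, 0.10 and 0.11 at 611 mg/kg and 0.02, -0.07 and -0.04 at 305.5 mg/kg, and reached 0.14 in 76.5 mg/kg rat 2. The 3 rats at 611 mg/kg thus lay above the vehicle rats, and those at 305.5 mg/kg within their range or, in rat 2, just below it.

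**Figure D1:**
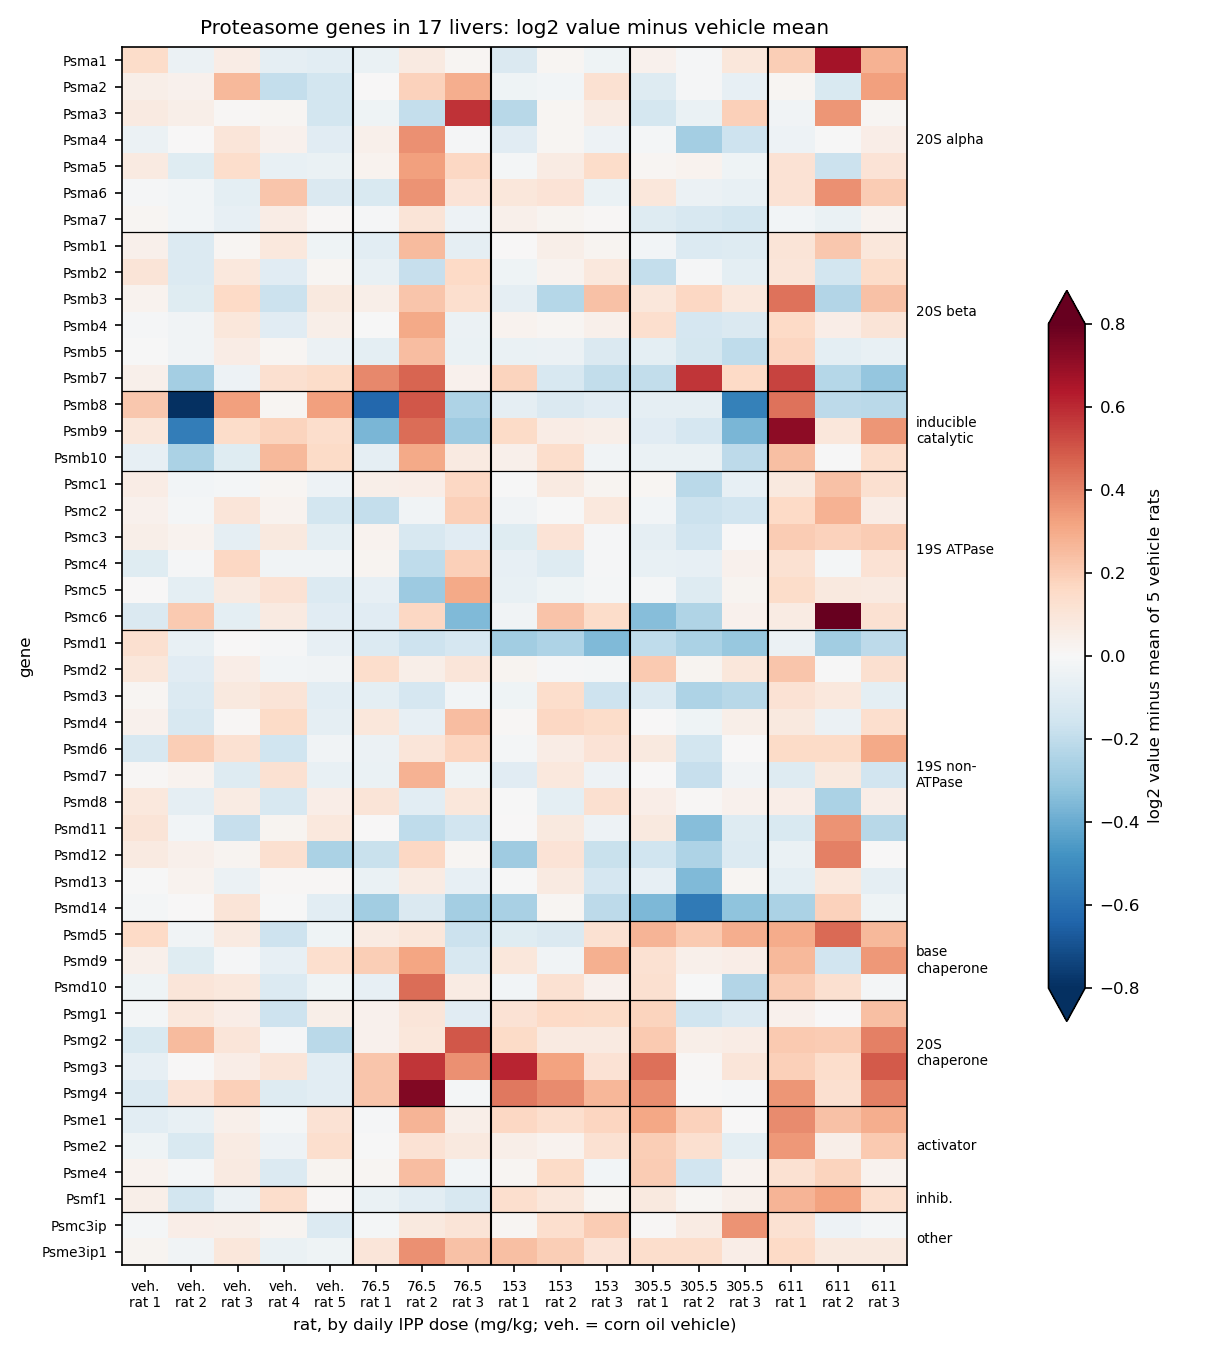
Heat map of the 46 genes (rows, grouped by role) in the 17 rats (columns, by daily IPP dose in mg/kg). Colour is the log2 value minus the mean of the 5 vehicle rats; most cells are pale, the inducible subunits Psmb8 and Psmb9 vary most between rats of one group, and Psma1 and Psmc6 are highest in 611 mg/kg rat 2.

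At the 2 lower doses no proteasome gene was called. At 76.5 mg/kg 0 of the 46 genes passed, where 0.267% of all genes did, and an unadjusted limma p under 0.05 was reached by 3 higher (5.56% of all genes) and 1 lower (5.18%). At 153 mg/kg 0 of the 46 passed, where 0.746% of all genes did, with again 3 higher (7.44% of all genes) and 1 lower (4.43%) at an unadjusted p under 0.05. Above vehicle lay 31 of the 46 genes at 76.5 mg/kg (52.9% of all genes) and 28 at 153 mg/kg (52.1%). Their median differences were 0.06 and 0.02, against 0.01 for all genes at both doses. Without the dimmest 40% of genes, 30 of 45 proteasome genes lay above vehicle at 76.5 mg/kg, against 55.4% of the genes left. The medians were 0.06 and 0.02. At 153 mg/kg it was 27 of 45 against 64.4%, with medians of 0.02 and 0.06, so the proteasome genes did not exceed this background there. All 3 rats lay clear of the 5 vehicle rats, at 76.5 mg/kg above in Psmg3 and Psme3ip1 (3.14% of all genes) and below in Psmd1 and Psmd14 (3.16%). At 153 mg/kg they did so above in 5 genes (8.3% of all genes) and below in Psmd1 and Psmb5 (4.42%). The 95% intervals of the 46 differences together spanned -0.68 to 0.70 at 76.5 mg/kg and -0.65 to 0.65 at 153 mg/kg. The direction was not firm at either dose: without 76.5 mg/kg rat 2 the median there was 0.0002, with 23 of 46 genes above 0, and after a repeated quantile normalization the median at 153 mg/kg was -0.02, with 19 above 0. In these pieces of whole liver, fewer cells of a type and less RNA per cell cannot be told apart.

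At 305.5 mg/kg 1 gene was lower, Psmd14, which encodes the deubiquitinase of the cap that cuts the ubiquitin chain off a substrate. That is 1 call in 46 genes, where 2.22% of all genes were called in either direction and 1.47% were called lower. An unadjusted p under 0.05 was reached by 1 higher (5.73% of all genes) and 3 lower (7.77%). Above vehicle lay 18 of the 46 genes (51.8% of all genes) and the median was -0.03 (all genes 0.01), but with a repeated quantile normalization 24 lay above and the median was 0.004. All 3 rats lay below all 5 vehicle rats in 5 genes, a separation found for 7.34% of all genes, and all lay above in 1 gene (6.37% of all genes).

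At 611 mg/kg 3 genes were higher, each by less than 1.5-fold: Psma1 (an alpha subunit), Psmd5 (a chaperone of cap assembly) and Psme1 (a subunit of the activator PA28). That is 3 calls in 46 genes, where 7.46% of all genes were called and 5.04% were called higher, so the share was near the background. An unadjusted p under 0.05 was reached by 11 higher (14.5% of all genes) and 1 lower (9.66%). Small differences above 0 were widespread: 40 of the 46 genes lay above vehicle, against 49.4% of all genes, and the median was 0.11 against -0.003. Among the brighter 60% of genes, where 60.1% lay above 0 with a median of 0.06, 39 of 45 proteasome genes did. A repeated quantile normalization brought this down to 32 of 46 with a median of 0.04, while without rat 2 it was 39 of 46 with a median of 0.11. All 3 rats lay above all vehicle rats in 7 genes (11.5% of all genes) and below them in 0 (7.13% of all genes). Without rat 2 no proteasome gene was called, and the adjusted p of Psma1, Psmd5 and Psme1 was 0.152, 0.188 and 0.0642.

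**Figure D2:**
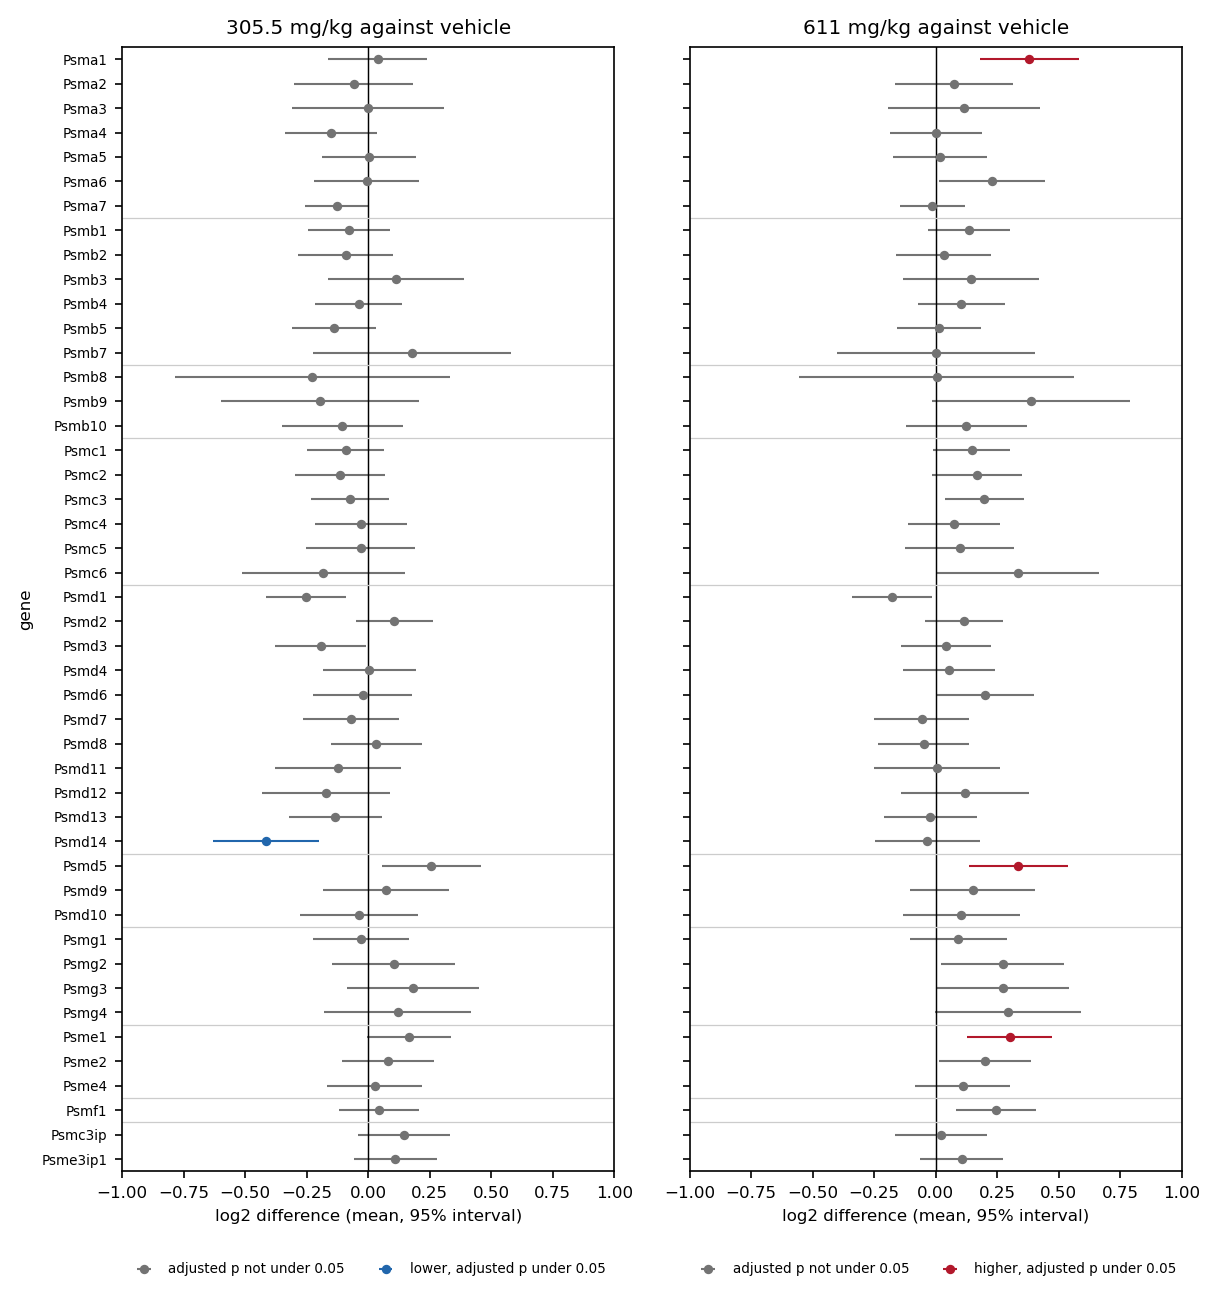
Log2 difference from vehicle of each of the 46 genes with its 95% interval, at 305.5 mg/kg (left) and 611 mg/kg (right), n = 3 rats per dose and 5 vehicle rats. Coloured points passed the adjusted p threshold of 0.05: Psmd14 lower on the left, and Psma1, Psmd5 and Psme1 higher on the right.

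Set directly against 305.5 mg/kg, the 611 mg/kg rats gave 0 calls among the 46 genes (0.324% of all genes were called), with 10 genes higher (9.3% of all genes) and 0 lower (6.75%) at an unadjusted p under 0.05. Of the 46 genes 42 were higher at 611 than at 305.5 mg/kg, against 52.5% of all genes, with a median of 0.13 against 0.01. After a repeated quantile normalization it was 33 of 46, with a median of 0.06. Without the dimmest 40% of genes, 42 of 45 proteasome genes were higher, against 65.4% of the genes left. The medians were then 0.13 and 0.07, so part of the excess was shared by brighter genes. All 3 rats at 611 mg/kg lay above all 3 at 305.5 mg/kg in 17 genes (11.2% of all genes) and below in 0 (9.23%). Without 611 mg/kg rat 2 this was 26 genes, with 15.6% of all genes. Over the rank of the dose group, from 0 for vehicle to 4 for 611 mg/kg, the slope was called upward for Psmd5 and Psme1 and downward for none of the 46 genes (6.74% of all genes were called and 3.96% upward). An unadjusted p under 0.05 was reached by 5 upward (12.5% of all genes) and 1 downward (8.81%). Of the 46 slopes 31 lay above 0 (49.3% of all genes). Without the dimmest 40% of genes 30 of 45 did, against 57.6% of the genes left.

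Within the alpha ring, which gates the barrel, Psma1 was the gene that rose. Its values in the vehicle rats were 11.01, 10.81, 10.91, 10.79 and 10.77, and at 611 mg/kg they were 11.05, 11.52 and 11.14. All 3 treated rats lay above the vehicle rats, rat 1 narrowly and rat 2 by the widest margin. The difference was 0.38 ± 0.10, or 1.30-fold (limma, adjusted p = 0.0231). The rats of the other 3 doses, between 10.74 and 10.95, lay within the vehicle range or just under it. The size rests on rat 2, without which the difference was 0.24 (adjusted p = 0.152), and the call was also lost without vehicle rat 5 (adjusted p = 0.0561). Of the other 6 alpha genes none was called at any dose. Psma6 was next at 611 mg/kg, at 0.23 ± 0.10 (adjusted p = 0.177), and Psma2, Psma3, Psma4, Psma5 and Psma7 lay between -0.01 and 0.11 there.

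In the constitutive beta ring none of the 6 genes was called at any dose. Psmb5, the chymotrypsin-like cutting site and the main target of proteasome inhibitors, measured 11.98, 11.96, 12.05, 12.00 and 11.94 in vehicle and 12.16, 11.91 and 11.93 at 611 mg/kg. The groups overlapped, and the difference was 0.01 ± 0.08, with a 95% interval from -0.16 to 0.18 (limma, adjusted p = 0.941). At 305.5 mg/kg its rats measured 11.91, 11.85 and 11.78, all below the vehicle rats, with a difference of -0.14 ± 0.08 that did not pass (adjusted p = 0.485). Psmb7, the trypsin-like site, was the least certain of the ring: its rats ranged from 9.60 to 10.46 within the 611 mg/kg group, around a difference of 0.001 (95% interval -0.40 to 0.40). Psmb1, Psmb2, Psmb3 and Psmb4, which carry no cutting site, lay between 0.03 and 0.14 at 611 mg/kg.

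The inducible catalytic subunits Psmb8, Psmb9 and Psmb10, which replace the constitutive sites after interferon, varied widely between rats of one group. Psmb8 measured 10.45, 9.34, 10.56, 10.25 and 10.56 in vehicle and 10.66, 10.02 and 10.02 at 611 mg/kg. Psmb9 measured 9.37, 8.73, 9.43, 9.46 and 9.43 in vehicle and 10.00, 9.38 and 9.63 at 611 mg/kg. Vehicle rat 2 was the lowest vehicle rat for all 3 genes, and the vehicle and 611 mg/kg ranges overlapped for each of them. The differences at 611 mg/kg were 0.004 ± 0.27 for Psmb8, 0.39 ± 0.19 for Psmb9 (limma, adjusted p = 0.225) and 0.12 ± 0.12 for Psmb10 (adjusted p = 0.535). At 305.5 mg/kg all 3 lay below vehicle, Psmb8 by 0.23, Psmb9 by 0.20 and Psmb10 by 0.11 on average, and none passed. Psmb9 had the largest difference of the 46 genes between the 2 upper doses, at 0.58 ± 0.21 with all rats at 611 mg/kg above those at 305.5 mg/kg (adjusted p = 0.219).

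Genes of the interferon response followed the same rats only in part. The mean of 18 measured interferon-responsive genes was 7.99, 7.64, 7.96, 8.39 and 7.92 in the vehicle rats, so vehicle rat 2 was again the lowest. The list mean was 7.79, 7.85 and 7.62 at 76.5 mg/kg, and 8.15, 8.08 and 8.15 at 153 mg/kg. It was 7.86, 7.74 and 7.82 at 305.5 mg/kg and 8.44, 8.22 and 8.10 at 611 mg/kg. Despite the low list means at 76.5 mg/kg, Psmb8 ranged there from 9.60 to 10.73, its highest value in any rat. Psmb9 ranged there from 8.91 to 9.73. At 611 mg/kg 4 of the 18 rose and 1 fell (7.46% of all genes called), with a list median of 0.37 against -0.003 for all genes. Those higher were Usp18, a protease that removes the interferon-induced tag ISG15 (1.16 ± 0.26, limma adjusted p = 0.0122), Cxcl9, a chemokine (0.70 ± 0.17, adjusted p = 0.0179), and Stat2 and Irf9, members of the complex that carries the interferon signal to DNA (0.56 ± 0.14, adjusted p = 0.0194, and 0.47 ± 0.14, adjusted p = 0.0481). Irf1, a transcription factor known to drive inducible subunit genes, went the other way: it measured 8.98, 8.76, 9.44, 9.19 and 9.36 in vehicle and 8.54, 7.94 and 8.38 at 611 mg/kg, with all treated rats below the vehicle rats (-0.86 ± 0.17, adjusted p = 0.0075). Irf1 was also called lower at 153 mg/kg (-0.82, adjusted p = 0.0338) and 305.5 mg/kg (-1.17, adjusted p = 0.0016). The Irf9 call at 611 mg/kg was lost in 18 of 28 alternative analyses. Irf9, Usp18 and Cxcl9 overlapped vehicle at 611 mg/kg. Vehicle rat 4 measured 8.84 for Irf9, above rats 2 and 3 (8.81 each), and 9.67 for Usp18, above rat 3 (9.49). For Cxcl9 vehicle rat 1, at 8.77, lay above rat 3 (8.69). With all rats, 7 of the 18 were higher and 3 lower at 611 mg/kg at an unadjusted p under 0.05, where 14.5% and 9.66% of all genes were. Without 611 mg/kg rat 2 none of the 18 genes was called at that dose, where 3.00% of all genes were, and the list median was 0.36. In that fit 8 reached an unadjusted p under 0.05 in either direction, and the share of all genes doing so was not counted. Stat2, at 11.36 in rat 2 against 10.68 and 10.73 in rats 1 and 3, then differed by 0.34 (limma, adjusted p = 0.130), Irf9 by 0.50 (adjusted p = 0.107), Cxcl9 by 0.74 (adjusted p = 0.0529), Usp18 by 1.07 (adjusted p = 0.0685) and Irf1 by -0.68 (adjusted p = 0.0574). The part of the interferon response in the levels of the inducible subunits was not tested.

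**Figure D3:**
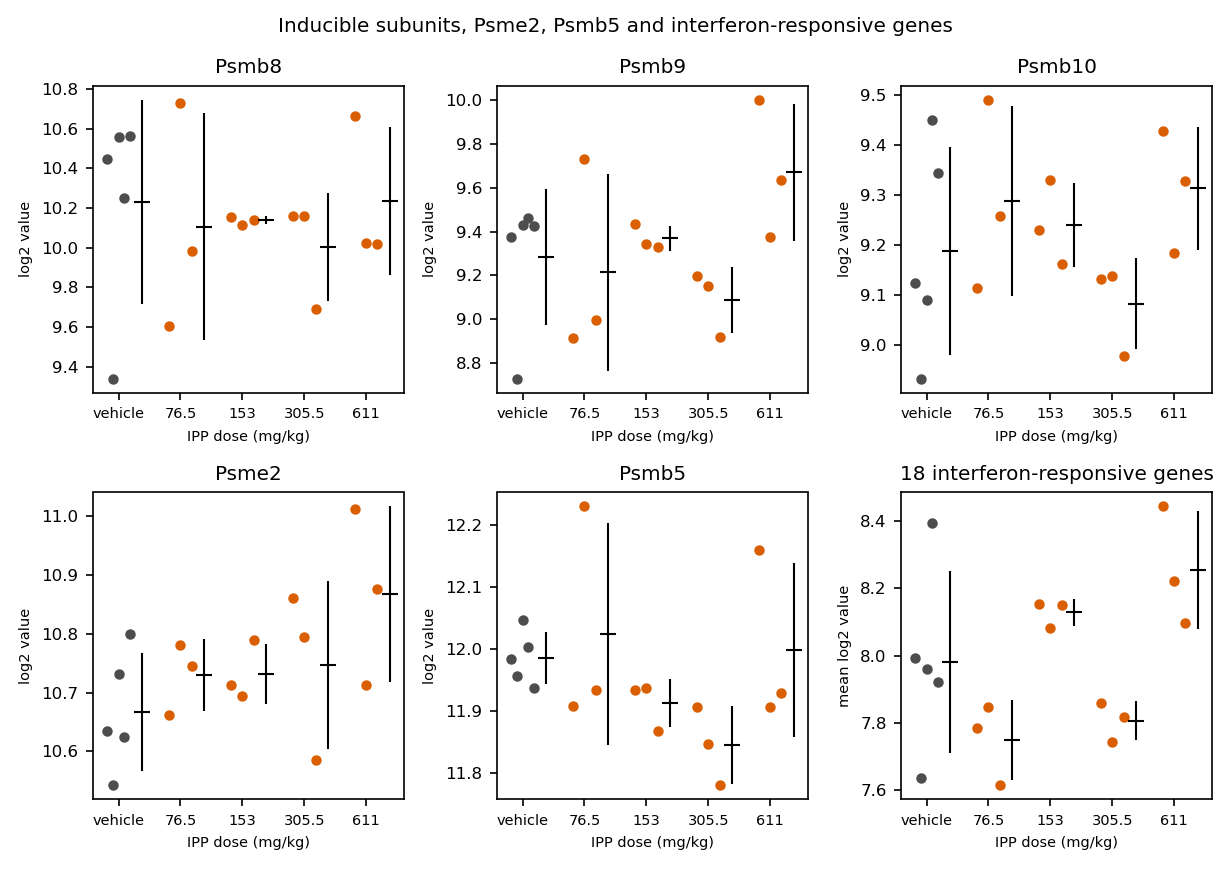
Log2 value per rat (points), with mean and SD beside each group, for the inducible subunits Psmb8, Psmb9 and Psmb10, the activator subunit Psme2, the constitutive subunit Psmb5 and, at lower right, the mean of 18 interferon-responsive genes, by daily IPP dose (mg/kg). The vertical scales differ between panels; vehicle rat 2 is the lowest vehicle rat in the panels of Psmb8, Psmb9, Psmb10, Psme2 and the interferon list, and the ranges at 611 mg/kg and in vehicle overlap for each of the 5 genes.

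Promoter sequences were searched for the letters bound by interferon regulatory factors. Of the 46 genes 42 matched a promoter in RefSeq (GRCr8), a window from 250 bases before to 50 after the start of the gene. The core of the interferon-stimulated element, read as GAAA, any 2 bases and GAAA again, stood on either strand in 7 of the 42 (16.7%), against 3.92% of all 33469 promoters. These were Psmb8, Psmb10 and Psme2, and also Psma4, Psmb3, Psmd7 and Psmg4, which are not inducible subunits or activators. The 33469 promoters were not limited to genes on the array, so the shares, here and for the motifs below, are not of like sets. Psmb9 held none in its window, which says only that these letters are not there. The 250 bases before the start are printed for Psmb10, at chr19:50743293-50743542 (- strand), and for Psme2, at chr15:33052752-33053001 (- strand), each 5' to 3' on the strand of the gene, because they carry whole matches. Capitals mark that core.
Psmb10: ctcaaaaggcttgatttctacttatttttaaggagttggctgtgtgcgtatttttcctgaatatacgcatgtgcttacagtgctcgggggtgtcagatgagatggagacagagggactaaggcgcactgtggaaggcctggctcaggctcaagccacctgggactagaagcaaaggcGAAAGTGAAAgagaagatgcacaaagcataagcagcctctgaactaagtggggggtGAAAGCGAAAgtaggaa
Psme2: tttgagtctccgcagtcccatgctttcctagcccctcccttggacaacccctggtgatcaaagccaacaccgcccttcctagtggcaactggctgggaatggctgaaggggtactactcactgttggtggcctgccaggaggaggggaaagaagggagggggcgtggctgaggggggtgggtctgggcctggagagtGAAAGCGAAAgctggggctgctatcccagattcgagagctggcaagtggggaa
Psmb10 holds 2 matches, which begin at positions -73 and -17 from the start, and Psme2 holds 1, at -53. A match describes the sequence and was not tested for binding.

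Read from the brightest probe set of each, all 6 ATPases of the cap, the ring that unfolds substrates, lay above vehicle at 611 mg/kg. They lay below it at 305.5 mg/kg, and none was called at any dose. Their median difference was 0.16 at 611 mg/kg and -0.08 at 305.5 mg/kg. Psmc3 gave the tightest group: it measured 10.62, 10.61, 10.50, 10.66 and 10.50 in vehicle and 10.78, 10.76 and 10.78 at 611 mg/kg. All 3 rats lay above the vehicle rats, with a difference of 0.20 ± 0.08 (limma, adjusted p = 0.120). Psmc6 had the largest difference of the 6 at 611 mg/kg, at 0.33 ± 0.16 (adjusted p = 0.202), carried by rat 2 at 11.13 while rats 1 and 3 measured 10.37 and 10.43. Without rat 2 the difference was 0.09. The other probe sets of Psmc6, with means of 10.29 and 8.04, gave 0.36 ± 0.13 and 0.38 ± 0.14 at 611 mg/kg. At 305.5 mg/kg they were split, at 0.07 ± 0.13 and -0.13 ± 0.14, against -0.18 ± 0.16 for the brightest. A dim second probe set of Psmc4, with a mean of 5.63, went against the brightest at both doses (-0.04 ± 0.09 at 611 mg/kg and 0.06 ± 0.09 at 305.5 mg/kg). Psmc1, Psmc2, Psmc4 and Psmc5 lay between 0.08 and 0.17 at 611 mg/kg. Between the 2 upper doses 4 of the 6 reached an unadjusted p under 0.05, all higher at 611 mg/kg (9.3% of all genes), and in 5 of the 6 all rats at 611 mg/kg lay above those at 305.5 mg/kg (11.2% of all genes). Psmc6 gave 0.52 ± 0.18 there, but its probe set with a mean of 10.29 gave 0.29 ± 0.15 (limma, unadjusted p = 0.074).

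Among the 11 other cap subunits Psmd14 fell at 305.5 mg/kg. It measured 10.26, 10.28, 10.38, 10.28 and 10.19 in vehicle and 9.92, 9.71 and 9.96 at 305.5 mg/kg. All 3 rats lay below the vehicle rats, by a difference of -0.42 ± 0.10, or 0.750-fold (limma, adjusted p = 0.0394). At 611 mg/kg its rats measured 10.02, 10.46 and 10.24, on both sides of the vehicle range, with a difference of -0.03 ± 0.10. At 76.5 mg/kg all 3 rats also lay below the vehicle rats, without passing (-0.22 ± 0.10, adjusted p = 0.445). A second probe set of Psmd14, with a mean of 8.45, gave -0.39 ± 0.15 at 305.5 mg/kg, and a dim one, with a mean of 5.23, gave -0.06 ± 0.12. The call was lost without any one of the vehicle rats, any one of the 305.5 mg/kg rats, 153 mg/kg rat 3 or 611 mg/kg rat 3, with differences from -0.46 to -0.34 and adjusted p up to 0.200.

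Psmd1, the large scaffold of the cap, was lower at each dose without passing at any. It measured 9.91, 9.72, 9.78, 9.77 and 9.72 in vehicle. All rats at 76.5 mg/kg (9.67, 9.61 and 9.65), 153 mg/kg (9.50, 9.53 and 9.43) and 305.5 mg/kg (9.58, 9.53 and 9.48) lay below the vehicle rats, while at 611 mg/kg rat 1, at 9.73, lay within their range. The differences were -0.14, -0.29 ± 0.08 (limma, adjusted p = 0.117), -0.25 ± 0.08 (adjusted p = 0.111) and -0.18 ± 0.08 (adjusted p = 0.171). At 153 mg/kg it passed with array weights and without the 3 arrays that stood apart, and at 305.5 mg/kg with array weights. The ubiquitin receptor Psmd4 and the scaffold Psmd2 lay at 0.05 and 0.12 at 611 mg/kg, and Psmd3 and Psmd6 at 0.04 and 0.20. Psmd7, the inactive partner of Psmd14, lay at -0.06, and Psmd8, Psmd11, Psmd12 and Psmd13, which shape the lid of the cap, between -0.05 and 0.12. None of these was called at any dose.

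Of the 3 chaperones that build the cap, Psmd5 rose. It measured 9.73, 9.54, 9.64, 9.40 and 9.53 in vehicle and 9.86, 10.02 and 9.83 at 611 mg/kg, with all treated rats above the vehicle rats. The difference was 0.34 ± 0.09, or 1.26-fold (limma, adjusted p = 0.0397). At 305.5 mg/kg its rats, at 9.84, 9.78 and 9.86, also lay above all vehicle rats, by 0.26 ± 0.09 without passing (adjusted p = 0.211), while the rats of the 2 lower doses, from 9.40 to 9.69, lay within the vehicle range or just under it. The slope was 0.09 per dose rank (adjusted p = 0.0292). The call at 611 mg/kg was lost without any one of vehicle rats 2 to 5, 305.5 mg/kg rat 3 or the 611 mg/kg rats, with adjusted p from 0.0509 to 0.188 and differences from 0.28 to 0.37. With array weights Psmd5 passed at 305.5 mg/kg as well. The call at 611 mg/kg was also lost with the GAPDH control difference as a covariate (0.31, adjusted p = 0.0629) and after a repeated quantile normalization (0.25, adjusted p = 0.116). Psmd9 and Psmd10 (gankyrin) lay at 0.15 ± 0.12 and 0.10 ± 0.11 at 611 mg/kg and were called at no dose. A second probe set of Psmd9, with a mean of 7.03, went the other way at 611 mg/kg (-0.13 ± 0.12).

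The 4 chaperones of core assembly, which help the alpha subunits form their ring, lay above vehicle at 76.5, 153 and 611 mg/kg without any call. Psmg3 measured 8.56, 8.63, 8.67, 8.72 and 8.54 in vehicle. It measured 8.85, 9.19 and 8.99 at 76.5 mg/kg, 9.23, 8.94 and 8.74 at 153 mg/kg and 8.81, 8.76 and 9.11 at 611 mg/kg, above all vehicle rats in each case. At 305.5 mg/kg, with 9.07, 8.63 and 8.72, it overlapped them. The differences were 0.39 ± 0.13 (limma, adjusted p = 0.267), 0.35 ± 0.13 (adjusted p = 0.284), 0.18 and 0.27 in order of dose, so there was no steady trend with dose (slope 0.05, adjusted p = 0.410). Psmg4 lay at 0.32, 0.36, 0.12 and 0.29 in the same order, with all rats above vehicle at 153 mg/kg alone. Psmg2 lay at 0.27 and Psmg1 at 0.09 at 611 mg/kg. Psmg2, Psmg3 and Psmg4 each passed at 611 mg/kg with array weights.

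Psme1 and Psme2 together form PA28, a ring that opens the barrel and is itself raised by interferon. Psme1 measured 11.94, 11.97, 12.07, 12.01 and 12.14 in vehicle and 12.41, 12.26 and 12.32 at 611 mg/kg. All treated rats lay above the vehicle rats, by 0.30 ± 0.08, or 1.23-fold (limma, adjusted p = 0.0336). Its means were 12.03, 12.13, 12.19, 12.19 and 12.33 from vehicle to the top dose, with a slope of 0.07 per rank (adjusted p = 0.0243). A second, dim probe set of Psme1, with a mean of 6.33, went the other way at 611 mg/kg (-0.22 ± 0.13), and the mean over both gave 0.04 (adjusted p = 0.815). The call was lost without any one of vehicle rats 1, 2 and 4 or the 611 mg/kg rats, with differences from 0.26 to 0.33 and adjusted p up to 0.0963. Psme2 measured 10.63, 10.54, 10.73, 10.62 and 10.80 in vehicle and 11.01, 10.71 and 10.88 at 611 mg/kg, with groups that overlapped and a difference of 0.20 ± 0.09 (adjusted p = 0.175). Psme4, the nuclear activator PA200, lay at 0.11 ± 0.09 at 611 mg/kg. Its other probe sets, with means of 9.82 and 8.96, were split, at -0.08 ± 0.11 and 0.17 ± 0.13.

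Psmf1, the inhibitor PI31, measured 10.56, 10.37, 10.47, 10.65 and 10.52 in vehicle and 10.79, 10.84 and 10.65 at 611 mg/kg. Its groups met at 10.65, and its difference of 0.24 ± 0.08 came nearest to passing among the genes not called (limma, adjusted p = 0.0640). It passed without the dimmest 40% of genes, after median centring and without vehicle rat 4. Of the genes that share only the letters, Psme3ip1 lay above all vehicle rats at 76.5 and 153 mg/kg, at 0.23 ± 0.08 and 0.18 ± 0.08, and Psmc3ip at most 0.15 above vehicle on average, with no call.

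**Figure D4:**
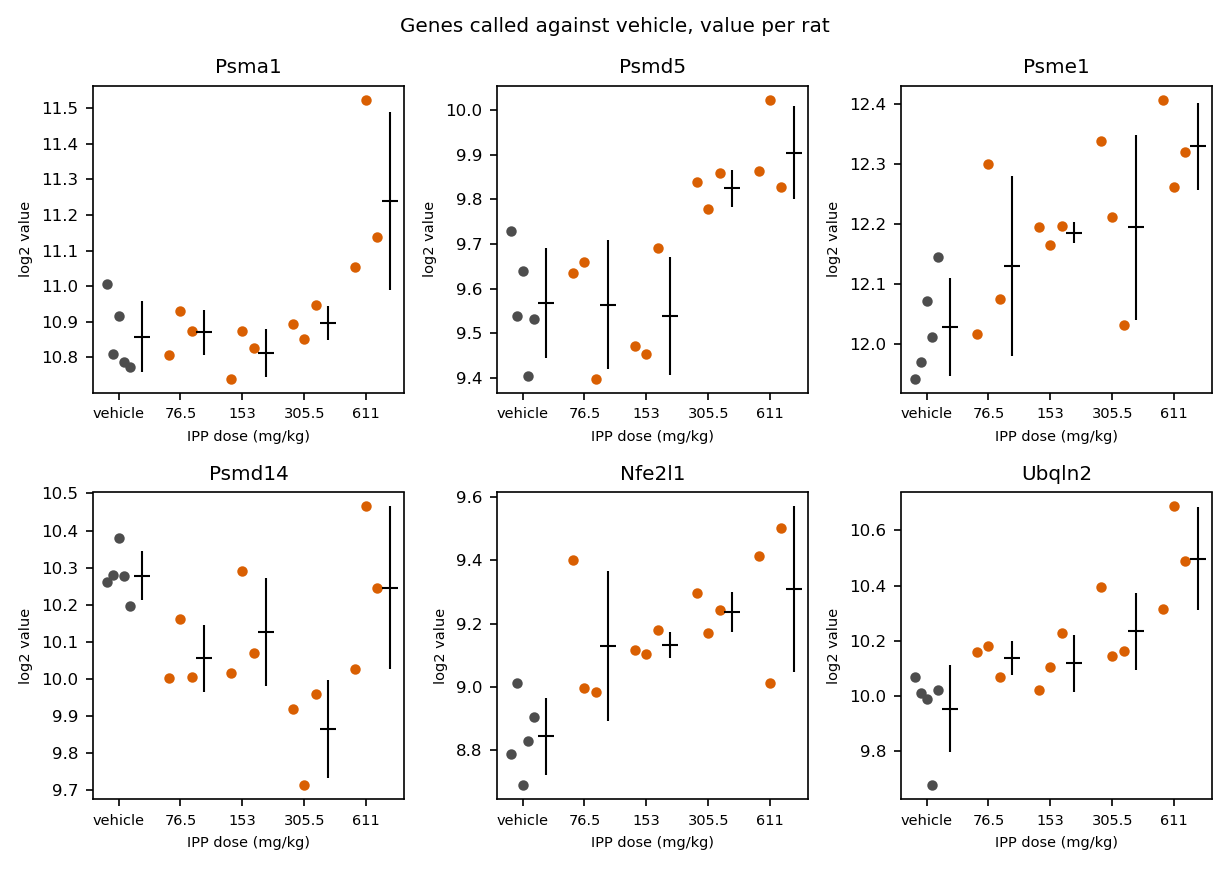
Log2 value per rat (points), with mean and SD beside each group, for the 4 proteasome genes called against vehicle (Psma1, Psmd5, Psme1, Psmd14) and the related genes Nfe2l1 and Ubqln2, by daily IPP dose (mg/kg). The vertical scales differ between panels; Psmd5 lies above vehicle at both upper doses, Psmd14 dips at 305.5 mg/kg, and the Psma1 mean at 611 mg/kg is raised by rat 2.

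The promoters of the 3 genes called at 611 mg/kg shared none of the motifs searched. These were CCAAT, the box bound by NF-Y, TGACNNNGC, the core of the antioxidant response element that NRF1 and NRF2 bind, and the interferon-stimulated core, all searched on both strands and counted separately. Matches of different motifs may overlap, as a CCAAT and a TGACNNNGC do by a base in Psmb2. CCAAT stood in 22 of the 42 matched promoters (52.4%) against 37.5% of all promoters, and TGACNNNGC in 7 (16.7%) against 12.1%. The 250 bases before the start follow for Psma1, at chr1:177887858-177888107 (- strand), Psmd5, at chr3:38548491-38548740 (- strand), and Psme1, at chr15:33038721-33038970 (+ strand), each 5' to 3' on the strand of the gene (RefSeq, GRCr8). They are shown to set the called genes side by side, and capitals mark CCAAT.
Psma1: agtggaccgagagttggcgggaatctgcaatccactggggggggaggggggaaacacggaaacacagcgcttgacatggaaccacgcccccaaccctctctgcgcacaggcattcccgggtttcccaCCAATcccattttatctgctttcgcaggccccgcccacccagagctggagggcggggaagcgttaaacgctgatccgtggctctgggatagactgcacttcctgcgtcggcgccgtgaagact
Psmd5: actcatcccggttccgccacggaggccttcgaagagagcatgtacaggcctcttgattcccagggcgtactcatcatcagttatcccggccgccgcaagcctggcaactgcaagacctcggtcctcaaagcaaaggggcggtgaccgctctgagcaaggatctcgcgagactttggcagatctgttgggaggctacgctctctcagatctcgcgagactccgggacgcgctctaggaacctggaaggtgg
Psme1: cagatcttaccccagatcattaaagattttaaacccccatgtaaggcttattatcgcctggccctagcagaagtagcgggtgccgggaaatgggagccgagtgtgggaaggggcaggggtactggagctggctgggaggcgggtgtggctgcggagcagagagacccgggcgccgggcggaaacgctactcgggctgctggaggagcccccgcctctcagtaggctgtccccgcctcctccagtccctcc
Psma1 holds 1 CCAAT, at position -123 from the start, and the stretches of Psmd5 and Psme1 hold none of the 3 motifs.

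Genes that act with the proteasome gave 2 calls at 611 mg/kg among 20 measured partners and regulators (median 0.14, all genes -0.003), both higher, and 0 at the other doses. Of all genes 7.46% were called at 611 mg/kg and 5.04% higher, so a count of 2 in 20 is near the background. At an unadjusted limma p under 0.05, 8 of the 20 were higher at 611 mg/kg, where 14.5% of all genes were. Between the 2 upper doses 6 were higher in that way (9.3% of all genes). Without 611 mg/kg rat 2, 3 of the 20 reached it against vehicle, and the share of all genes doing so was not counted. Nfe2l1, the regulator named above, measured 8.79, 9.01, 8.69, 8.83 and 8.90 in vehicle and 9.42, 9.01 and 9.50 at 611 mg/kg. Rats 1 and 3 lay above the vehicle rats and rat 2 at the highest of them. The difference was 0.47 ± 0.12 (limma, adjusted p = 0.0248), with a slope of 0.11 per rank (adjusted p = 0.0150) and 0.39 at 305.5 mg/kg without passing (adjusted p = 0.104). The call at 611 mg/kg was lost without vehicle rat 1 or 3, without 611 mg/kg rat 1 or 3 (adjusted p from 0.0534 to 0.114), with a replicate block (adjusted p = 0.0945) and after a repeated quantile normalization (adjusted p = 0.105). Without rat 2 the difference was 0.61 (adjusted p = 0.0093). The slope of Nfe2l1 was not called without 611 mg/kg rat 3 (adjusted p = 0.0511), after a repeated quantile normalization (0.0556), with a replicate block (0.0856), without the 611 mg/kg group (0.0635) or in treated rats alone (0.618). Ubqln2, which encodes a ubiquilin that carries ubiquitin-tagged proteins to the proteasome, measured 10.07, 10.01, 9.99, 9.68 and 10.02 in vehicle and 10.31, 10.69 and 10.49 at 611 mg/kg. All treated rats lay above the vehicle rats, by 0.54 ± 0.11 (adjusted p = 0.0057), and the slope was 0.12 per rank (adjusted p = 0.0059). Without rat 2 the difference was 0.45 (adjusted p = 0.0410). The mean over all probe sets of Ubqln2 gave 0.05 (adjusted p = 0.666), so the call rests on the brightest one. The slope of Ubqln2 was also not called without the 611 mg/kg group (adjusted p = 0.189) or in treated rats alone (0.258).

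Other steps of the pathway gave no call at any of the 4 doses. None of 8 measured genes for ubiquitin and its first enzymes passed (median 0.08 at 611 mg/kg), nor did any of 10 genes of the p97 unfoldase and its cofactors (median 0.03), with 2 genes of each list higher at an unadjusted p under 0.05 at 611 mg/kg, where 14.5% of all genes were. Of 10 measured genes of class I antigen presentation, which uses proteasome products, none was called and 4 were higher at an unadjusted p under 0.05 at 611 mg/kg (median 0.10), where 14.5% of all genes were. Tap1, a peptide transporter, came nearest at 0.51 (limma, adjusted p = 0.0641).

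Some markers of other liver cells were lower at the 2 upper doses, where 2.22% and 7.46% of all genes were called and 7.77% and 9.66% were lower at an unadjusted p under 0.05. Of 8 measured endothelial markers 1 was called lower at 305.5 mg/kg and 4 at 611 mg/kg, 4 also without rat 2. Their list mean per rat ran from 8.98 to 9.24 in vehicle, 8.58 to 8.89 at 305.5 mg/kg and 8.59 to 8.66 at 611 mg/kg. Of 10 stellate cell and fibroblast markers 1 was called lower at each of these doses, and 2 at 611 mg/kg without rat 2. At an unadjusted p under 0.05, 4 were lower and 1 higher at 305.5 mg/kg, and 6 lower and 1 higher at 611 mg/kg. Of all genes 5.73% and 14.5% were higher in that way. Their list means were 7.59 to 7.92 in vehicle, 7.27 to 7.58 at 305.5 mg/kg and 7.27 to 7.50 at 611 mg/kg, so both lists lay below all vehicle rats at both doses. Of 10 general white cell markers 1 was called lower at 305.5 mg/kg and 0 at 611 mg/kg, with 5 and 3 lower at an unadjusted p under 0.05. Their list means were 7.63 to 8.08 in vehicle and 7.56 to 7.62 at 305.5 mg/kg, just below all vehicle rats. At 611 mg/kg they were 7.60 to 7.84, which overlapped vehicle. The 11 macrophage markers had 0 calls at either dose, with 6 and 5 lower at an unadjusted p under 0.05. Their list means, 9.63 to 10.13 in vehicle, 9.52 to 9.75 at 305.5 mg/kg and 9.60 to 9.86 at 611 mg/kg, overlapped. The 13 lymphocyte markers had 0 calls, with 4 lower at an unadjusted p under 0.05 at 611 mg/kg, and list means of 5.72 to 5.92 in vehicle and 5.68 to 5.71 at 611 mg/kg, just below the vehicle rats. The 6 neutrophil markers had 0 calls, with 1 lower at an unadjusted p under 0.05 at 611 mg/kg. Without 611 mg/kg rat 2 fewer markers of these 4 lists reached an unadjusted p under 0.05 at that dose. The counts in either direction were 0 for white cell, 2 for macrophage, 1 for lymphocyte and 0 for neutrophil markers. The lymphocyte list means, and the neutrophil ones in vehicle and at the 2 upper doses, lay below the array medians of 6.29 to 6.40. Signals this dim say little about the number of these cells. The part of these cells in the differences of the proteasome genes was not tested.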

How the data were processed

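Liver RNA of 17 rats was measured on 1 array each. The authors deposited log2 signal after RMA, per the submitters' processing notes; its software is not given in the sources used here. The platform annotation (2016) gave 20826 of 31099 probe sets 1 symbol, 436 several and 9780 none; 57 were controls. The probe set with the highest mean stood for each of 14217 genes, with no filter. limma 3.58.1 in R 4.3.3 fitted the 5 groups over all 17 arrays (lmFit, eBayes with trend), with Benjamini-Hochberg adjustment over all genes within each comparison and calls at an adjusted p under 0.05; the dose rank was fitted as a slope. The fit was tested on simulated data.

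Each array is a separate rat per the labels. The genes, gene lists, tests and alternatives were chosen with earlier results of these data known. Every gene of the rule could be named; of the other lists, called genes or those with the smallest p of the slope. Alternatives were other probe sets, filters, scalings, weights, a replicate block, a GAPDH covariate, single groups and thresholds, and leaving out rats. The labels do not state that the replicate numbers pair the rats. Promoters come from RefSeq (GRCr8). Protein sequences were not used here.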

Additional observations from a re-analysis of the deposited data

Results flagged for a closer look

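In the vehicle group 3 of the 46 genes had 1 rat far from the other 4, by the gap to the nearest rat as a share of the range of the 5 rats (0.71 or more is unusual for 5 rats, and chance gives about 1 in 20 genes). Psmb8 in vehicle rat 2 stood at 9.34 with the nearest vehicle rat at 10.25, a share of 0.744. Psmb9 in the same rat stood at 8.73 with the nearest at 9.37, a share of 0.882. Psmd12, a subunit of the cap, stood at 9.43 in vehicle rat 5 with the nearest at 9.71, a share of 0.725. The mean of 18 interferon-responsive genes was also lowest in vehicle rat 2 among the vehicle rats, at 7.64 against 7.92 to 8.39.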

How the results depend on the processing

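Precision was limited by 3 rats a dose and by arrays of unequal quality, and the counts of called proteasome genes were small enough for 1 rat to change them. At 305.5 mg/kg the count of 1 became 0 with the mean over probe sets, median centring or an adjusted p under 0.01, and 3 with array weights. At 611 mg/kg the count of 3 became 6 with array weights, 1 without the 3 arrays that stood apart or in a fit of 2 groups alone, and 0 at an adjusted p under 0.01. For the slope the count of 2 became 1 with the mean over probe sets, a repeated quantile normalization, without the 3 arrays or without the 611 mg/kg group (1 lower), 0 in treated rats alone or at an adjusted p under 0.01, and 4 at an adjusted p under 0.1. At 76.5 mg/kg the count of 0 became 1 with array weights, and at 153 mg/kg 1 with array weights or without the 3 arrays. Leaving out each rat gave counts from 0 to 1 at 305.5 mg/kg, 0 to 3 at 611 mg/kg and 0 to 2 for the slope, and 0 at the lower doses. Between 611 and 305.5 mg/kg the count was 0 in all 30 alternatives. No called gene turned its direction in any alternative: of 28 alternatives each, the call was lost in 13 for Psmd14, 5 for Psma1, 13 for Psmd5 and 8 for Psme1. With the replicate number as a block (replicate block) the counts at 305.5 mg/kg, at 611 mg/kg and for the slope were 0. Deviations of same-numbered rats of different groups had correlations from -0.26 to 0.40 (median 0.01, n = 30 pairs). For different numbers they ran from -0.35 to 0.34 (median -0.02, n = 84 pairs). Both ranges are wide, so these correlations cannot show whether the numbers pair the rats, and the labels do not state it. These counts are given without the share of all genes called in each setting, so a change in them is not a result about the proteasome genes. Why counts moved was not tested.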

Other observations

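Genes of the heat shock response encode chaperones, and those of the cytosol can refold proteins the proteasome would otherwise degrade. Of 11 measured genes 1 was called lower at 305.5 mg/kg and 1 at 611 mg/kg by limma, 0 were called higher at any dose, and 6 and 4 were lower at an unadjusted p under 0.05. Of all genes 2.22% and 7.46% were called at these doses, and 7.77% and 9.66% were lower at an unadjusted p under 0.05, so 1 call in 11 genes at 611 mg/kg is near the background. Over the dose rank 2 of the 11 were called lower, where 6.74% of all genes were called in either direction. Fkbp4, a cochaperone of HSP90, measured 10.15, 9.68, 10.03, 10.20 and 10.44 in vehicle and 9.54, 8.51 and 9.32 at 611 mg/kg. All treated rats lay below the vehicle rats, rat 2 furthest, with a difference of -0.98 ± 0.21 (limma, adjusted p = 0.0106), and the slope was -0.23 per rank (adjusted p = 0.0076). Without rat 2 the difference at 611 mg/kg was -0.67 (adjusted p = 0.0784). Hspe1, the mitochondrial cochaperonin, measured 12.97, 13.10, 13.11, 12.93 and 12.84 in vehicle and 12.70, 12.64 and 12.53 at 305.5 mg/kg, all below the vehicle rats (-0.37 ± 0.08, adjusted p = 0.0202), and lay at -0.12 at 611 mg/kg without passing (adjusted p = 0.358). The list means ran from 9.96 to 10.15 at 611 mg/kg against 10.29 to 10.34 in vehicle.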
